A study of Mus musculus with 6 samples.

Results

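Actb, Gapdh, Pfn1, Lmna and Ptma, 5 loci taken here as constitutive, were followed through the H3K27ac peak lists of the series. Expression was not measured in these libraries, so whether the genes are constitutive in these cells was not checked. A peak was assigned to a locus where it overlapped a window of 18 to 40 kb set by coordinate in mouse build mm39 around the gene. The windows held 38 of 79419 deposited peaks: 14 in Bmal1KO, 11 in Mfp2KO and 13 in wild type (WT). The loci were chosen by their H3K27ac tags in these same libraries, as strongly acetylated examples, so their levels and ratios are a description and no test is given on them.

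The series compares 3 genotypes of RAW264.7, a mouse line with macrophage properties: cells that lack Bmal1 (Bmal1KO), cells that lack Mfp2 (Mfp2KO) and wild-type cells. The titles of the wild-type libraries alone carry the word Naive, which the labels do not explain. All were grown in DMEM with serum, and the labels name no stimulus. They also do not say how the knockouts were made or whether each is 1 clone. BMAL1 drives transcription within the circadian clock, and MFP2 is an enzyme of peroxisomal β-oxidation. There was 1 H3K27ac library and 1 input library for each genotype, so there is no replicate spread, and each difference below is between libraries. The ChIP libraries held 12.5 M tags in Bmal1KO, 15.8 M in Mfp2KO and 15.8 M in WT. The share of tags in peaks was 37.4%, 57.2% and 38.7% in the same order, per the authors' file headers, so Mfp2KO had more of its tags in peaks than WT at equal depth. The cell type was not checked here against macrophage markers, and neither were the Bmal1 and Mfp2 genes themselves.

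Acetylation of lysine 27 of histone H3 marks active promoters and enhancers, and it accumulates over the promoters of highly transcribed genes. Actb encodes β-actin, and Pfn1 encodes profilin 1, which binds actin monomers and helps filaments to grow. Gapdh encodes the glycolytic enzyme glyceraldehyde-3-phosphate dehydrogenase. Lmna encodes the A-type lamins of the nuclear lamina, and Ptma encodes prothymosin α, a small, very acidic nuclear protein that binds histones. Genes such as Actb and Gapdh are in common use as references on which samples are scaled, and their promoters as positive controls in ChIP for active marks.

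The 5 loci did not keep a common ratio between libraries. Values below are ChIP tags scaled by the authors to 10 M tags per library and summed over the peaks of a window. In Mfp2KO all 5 loci had more tags than in WT, from 1.41-fold at Actb to 4.48-fold at Gapdh, with a median of 1.81-fold. In Bmal1KO the loci lay on both sides of WT, from 0.725-fold at Actb to 1.495-fold at Ptma, with a median of 1.09-fold. Over the 14779 merged regions called in every genotype, the median was 1.36-fold in Mfp2KO and 0.875-fold in Bmal1KO. Over the 2956 of them with most tags, called the top 20% below, it was 1.59-fold and 1.11-fold. Tags were higher than in WT by any amount in 63.4% of all these regions and 86.3% of the top 20% in Mfp2KO, and in 41.6% and 60.1% in Bmal1KO. That all 5 loci were higher in Mfp2KO, and 4 of 5 in Bmal1KO, is read against those shares, and nothing particular to the loci is drawn from it. Intervals given below are 95% exact (Clopper-Pearson) intervals on the 2 tag counts and cover counting error only. Both comparisons use the same WT library.

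Promoters are where this mark accumulates, so the sequence before the annotated starts of the genes is shown here. The RefSeq promoter table is of build GRCm38.p6, not the mm39 of the peaks, so the stretches were matched by gene symbol and could not be placed on the peaks. Of the 5 genes, 4 had entries, 5 entries in all, and Actb had none. Each entry is printed below as the 250 bases before the start, in lower case, with matches to the motifs searched in capitals.
Gapdh, chr6:125165774-125166023, minus strand, GRCm38.p6: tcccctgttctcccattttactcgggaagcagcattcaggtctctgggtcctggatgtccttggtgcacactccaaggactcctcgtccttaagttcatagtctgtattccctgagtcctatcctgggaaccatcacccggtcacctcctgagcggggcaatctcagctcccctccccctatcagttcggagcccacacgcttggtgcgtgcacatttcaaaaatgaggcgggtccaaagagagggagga
Pfn1, chr11:70654651-70654900, minus strand, GRCm38.p6: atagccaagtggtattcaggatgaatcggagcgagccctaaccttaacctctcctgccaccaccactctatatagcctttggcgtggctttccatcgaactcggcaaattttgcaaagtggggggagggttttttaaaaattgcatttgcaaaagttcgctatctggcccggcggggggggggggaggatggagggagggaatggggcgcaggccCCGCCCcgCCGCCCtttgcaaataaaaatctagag
Lmna, downstream start, chr3:88493313-88493562, minus strand, GRCm38.p6: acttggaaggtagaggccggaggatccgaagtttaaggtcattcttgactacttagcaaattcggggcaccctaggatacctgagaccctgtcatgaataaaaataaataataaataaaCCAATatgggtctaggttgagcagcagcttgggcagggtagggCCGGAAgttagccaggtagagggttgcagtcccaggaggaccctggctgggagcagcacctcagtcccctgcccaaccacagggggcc
Lmna, upstream start, chr3:88503353-88503602, minus strand, GRCm38.p6: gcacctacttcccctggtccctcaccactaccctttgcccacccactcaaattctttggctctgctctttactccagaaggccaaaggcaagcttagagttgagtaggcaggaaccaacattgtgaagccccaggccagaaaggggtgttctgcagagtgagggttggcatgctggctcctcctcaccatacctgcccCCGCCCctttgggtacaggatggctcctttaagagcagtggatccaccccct
Ptma, chr1:86526307-86526556, plus strand, GRCm38.p6: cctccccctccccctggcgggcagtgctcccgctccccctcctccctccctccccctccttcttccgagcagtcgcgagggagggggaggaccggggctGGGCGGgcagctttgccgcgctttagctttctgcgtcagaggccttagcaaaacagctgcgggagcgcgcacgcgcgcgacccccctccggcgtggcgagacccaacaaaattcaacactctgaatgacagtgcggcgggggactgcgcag

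The search covered 7 motifs on both strands, none of which overlapped another in these entries. GGGCGG, the GC box, was found 2 times before Pfn1, 1 time before Ptma and 1 time before the upstream start of Lmna, and it is present in 32.7% of the 32851 entries of the table. CCAAT and the ETS-family core CCGGAA each occurred 1 time before the downstream start of Lmna, and 33.8% of all entries hold CCAAT and 12.0% hold CCGGAA. The E-box sequence CACGTG, which BMAL1 is known to bind with its partner CLOCK, is present in 6.02% of all entries and in none of these 5. The same held for TATAAA, the TATA box, which 12.4% of entries have. It also held for TGANTCA, an AP-1 motif, which 6.75% have, and for the CArG box, which 1.47% have. The Gapdh entry held none of the 7. The entries also differed in composition: Ptma had 23 CpG dinucleotides and 69.2% G and C, Pfn1 had 12 CpG, Gapdh 8, and the Lmna entries 4 and 1, where the median entry had 6. These are matches of letters in short windows and not sites of binding.

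Each locus held 1 principal region, the merged region with most tags, called in every genotype. Ranked by the geometric mean of its tags in the 3 libraries, the principal region of Ptma was 12th and that of Pfn1 16th of the 14779 regions called in every genotype. Those of Lmna, Actb and Gapdh were 205th, 452nd and 2098th. All 5 lay in the top 20%, which begins at a geometric mean of 438 tags. Gapdh, at 521, was in it through its 1371 tags in Mfp2KO, since it had 335 in Bmal1KO and 308 in WT. In mm39 they were chr1:86450065-86458036 for Ptma, chr11:70542578-70549180 for Pfn1, chr3:88396183-88404012 for Lmna, chr5:142889830-142898150 for Actb and chr6:125138220-125145664 for Gapdh. Peaks were placed by these coordinates and not by gene annotation. Gapdh was the weakest of them by geometric mean. Its strongest peak was within the top 15.4% of its list by tags in Bmal1KO, 1.53% in Mfp2KO and 13.8% in WT. In Mfp2KO the strongest Actb peak ranked below it, within the top 1.87%. Gapdh is thus strongly acetylated in the Mfp2KO list and less so in the others.

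Since the windows and peaks differ in length, levels are compared between loci as tags per kb of called sequence. Ptma was the densest locus in every library, with 447 tags per kb in Bmal1KO, 510 in Mfp2KO and 236 in WT. Pfn1 followed with 260, 374 and 212 tags per kb, and Lmna with 144, 177 and 125, in the same order of genotypes. Actb had 81.9 tags per kb in Bmal1KO, 143 in Mfp2KO and 97.6 in WT. Gapdh had 66.4, 174 and 57.1 tags per kb in the same order. Ptma, Pfn1, Lmna, Actb and Gapdh were thus in this order, from densest to least dense, in Bmal1KO and in WT, whereas in Mfp2KO Gapdh stood above Actb. Neighbours in the order did not share counting intervals, with the exception of Lmna and Gapdh in Mfp2KO (173 to 182 and 167 to 181 tags per kb). The most tagged locus had 7.57 times the summed tags of the least tagged one in Bmal1KO, 2.79 times in Mfp2KO and 7.90 times in WT, and in each library these were Lmna, in the widest window, and Gapdh.

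**Figure D1:**
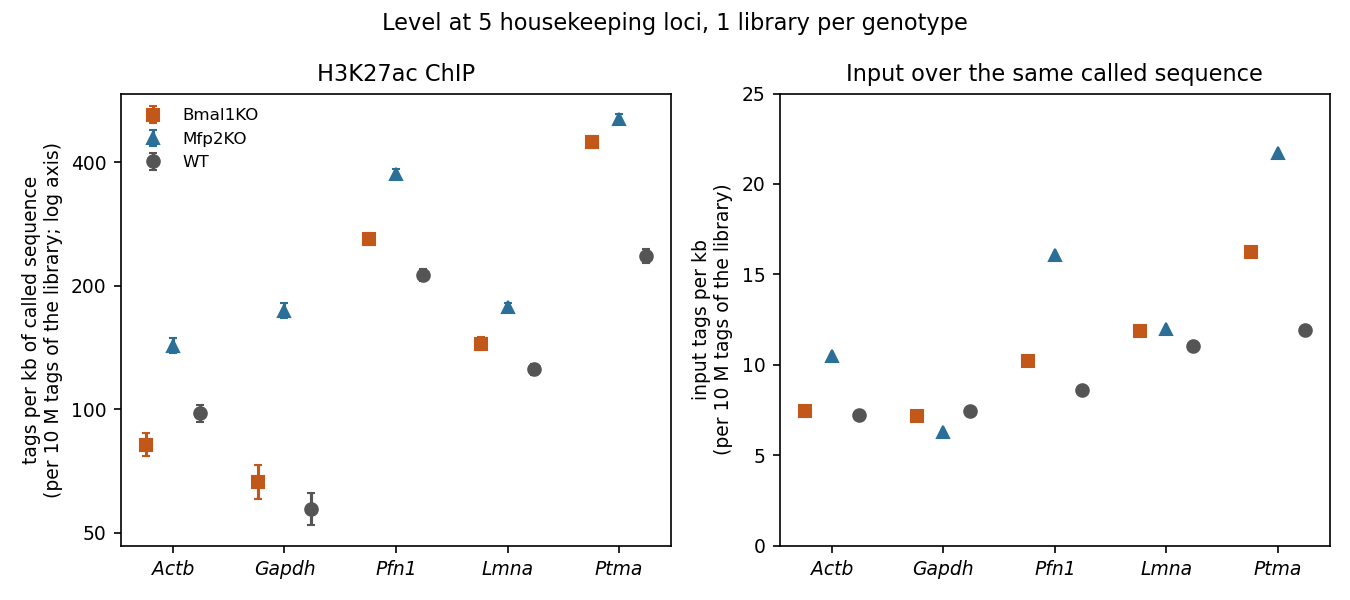
Tags per kb of called sequence at the 5 loci in the H3K27ac ChIP libraries (left, log axis, bars are 95% counting intervals) and in the input libraries over the same called sequence (right), for Bmal1KO, Mfp2KO and WT, 1 library each. Gapdh stands at 66.4 tags per kb in Bmal1KO, 174 in Mfp2KO and 57.1 in WT, while its input lies between 6.29 and 7.42 tags per kb in all 3.

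Gapdh differed most. The window held 335 tags in Bmal1KO, 1380 in Mfp2KO and 308 in WT. Bmal1KO was at 1.09-fold of WT (0.951 to 1.24), an interval that includes 1, and Mfp2KO was at 4.48-fold (4.06 to 4.95). Relative to the median region, Bmal1KO was at 1.24-fold (1.09 to 1.42), an interval that leaves out 1, so whether Bmal1KO and WT differ at Gapdh beyond counting error depends on the scaling. The principal peak spanned 125140392 to 125144929 in Bmal1KO, 125138220 to 125145664 in Mfp2KO and 125139841 to 125145235 in WT, which is 4537, 7444 and 5394 bp. It extended past the WT peak on both sides in Mfp2KO. Enrichment of this peak over input, the authors' value per peak, was 9.47-fold in Bmal1KO, 28.6-fold in Mfp2KO and 7.69-fold in WT. Each knockout had a second peak of 500 bp, with 7.98 tags on the left in Bmal1KO, where the Mfp2KO peak extends over it, and 8.87 tags on the right in Mfp2KO.

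Over all 14779 regions called in every genotype, 838, or 5.67%, had a Mfp2KO to WT ratio at or above the 4.45 of the Gapdh principal region. No rank among regions of like strength is given, since the strength of Gapdh rests on its Mfp2KO tags. After division by the median region, Gapdh was still at 3.29-fold (2.98 to 3.64) in Mfp2KO. Input tags per kb at Gapdh were 7.14 in Bmal1KO, 6.29 in Mfp2KO and 7.42 in WT, per 10 M tags. The Mfp2KO to WT ratio of input per kb was 0.847 (0.581 to 1.21), an interval that includes 1. The ratio of ChIP tags per kb was 3.04, and how far the input enters it was not tested. Summed over the called sequence, which was longer in Mfp2KO, input was 49.9 tags in Mfp2KO and 40.0 in WT, per 10 M tags.

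Ptma, next after Gapdh in Mfp2KO, had 2466 tags in Bmal1KO, 3537 in Mfp2KO and 1650 in WT. Both knockout libraries stood above WT, at 1.495-fold in Bmal1KO (1.42 to 1.58) and 2.14-fold in Mfp2KO (2.05 to 2.25). The tags sat in less sequence in Bmal1KO: the principal peak was 4723 bp in Bmal1KO, 6179 bp in Mfp2KO and 6989 bp in WT. Its density was 518 tags per kb in Bmal1KO, 567 in Mfp2KO and 236 in WT. On the left, where the WT peak began at 86450493, each knockout had a separate small peak, of 19.5 tags in Bmal1KO and 32.0 in Mfp2KO. In Bmal1KO the locus had 78.9% of the WT called length, the lowest share of the 5 loci. Input per kb at Ptma was the highest of the 5 loci in every library, at 16.2 in Bmal1KO, 21.7 in Mfp2KO and 11.9 in WT. Relative to input, the ratio to WT came to 1.39 in Bmal1KO and 1.19 in Mfp2KO.

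Pfn1 had 2459 tags in Bmal1KO, 3667 in Mfp2KO and 2025 in WT. Bmal1KO was at 1.21-fold of WT (1.16 to 1.28) and Mfp2KO at 1.81-fold (1.73 to 1.89). The extent of its principal peak was alike in all lists, at 6093, 6602 and 6138 bp in Bmal1KO, Mfp2KO and WT, and the sequence common to all 3 peaks was 5999 bp, or 97.7% of the WT peak. A weaker region to its left, from 70536513 to 70539977, held 217 tags in Bmal1KO, 504 in Mfp2KO and 181 in WT. There the ratio to WT was 1.20 in Bmal1KO (1.01 to 1.42) and 2.79 in Mfp2KO (2.44 to 3.21), against 1.72 in Mfp2KO (1.64 to 1.80) at the principal region. The window covers more than Pfn1: in the RefSeq annotation of GRCm38.p6 the gene lies between Rnf167 and Spag7 and overlaps Eno3, so some of these tags may lie over other genes.

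Lmna had 2534 tags in Bmal1KO, 3855 in Mfp2KO and 2434 in WT. Bmal1KO was at 1.04-fold of WT (0.993 to 1.09), an interval that includes 1, and Mfp2KO was at 1.58-fold (1.52 to 1.65). The tags fell into 3 regions called in every genotype. The left one, from 88396183 to 88404012, held 1087 tags in Bmal1KO, 1494 in Mfp2KO and 1013 in WT. The central one, from 88405279 to 88413206, held 787, 1453 and 779 tags in the same order. The right one, from 88415073 to 88422558, held 660, 908 and 629. In Bmal1KO the 3 ratios to WT lay close together, between 1.01 and 1.07. In Mfp2KO the central region stood apart at 1.87-fold (1.74 to 2.001), against 1.48-fold (1.38 to 1.57) at the left and 1.44-fold (1.33 to 1.57) at the right. The left and right regions were longer in Mfp2KO than in WT, at 1.47 and 1.26 times the called length, while the central one was shorter, at 0.859 times. The gene has 2 annotated starts in the table of promoters, and which region holds which start was not determined.

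Actb had 774 tags in Bmal1KO, 1504 in Mfp2KO and 1067 in WT. It was the only one of the 5 loci below WT in Bmal1KO, at 0.725-fold (0.670 to 0.785), and it had the lowest ratio of the 5 in Mfp2KO too, at 1.41-fold (1.32 to 1.501). In Mfp2KO this ratio was close to that of the median region, at 1.04 times it (0.973 to 1.10). The principal peak held 671 tags over 6683 bp in Bmal1KO, 1290 tags over 8206 bp in Mfp2KO and 950.4 tags over 7552 bp in WT. A weaker peak at the left edge of the window held 91.3 tags in Bmal1KO, 213.9 in Mfp2KO and 98.5 in WT. Its ratio to WT was 0.927 in Bmal1KO (0.717 to 1.18) and 2.17 in Mfp2KO (1.79 to 2.64), so in both knockouts it was above that of the principal region, at 0.706 (0.648 to 0.769) and 1.36 (1.27 to 1.45). Input per kb at Actb was 7.43 in Bmal1KO, 10.5 in Mfp2KO and 7.24 in WT.

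**Figure D2:**
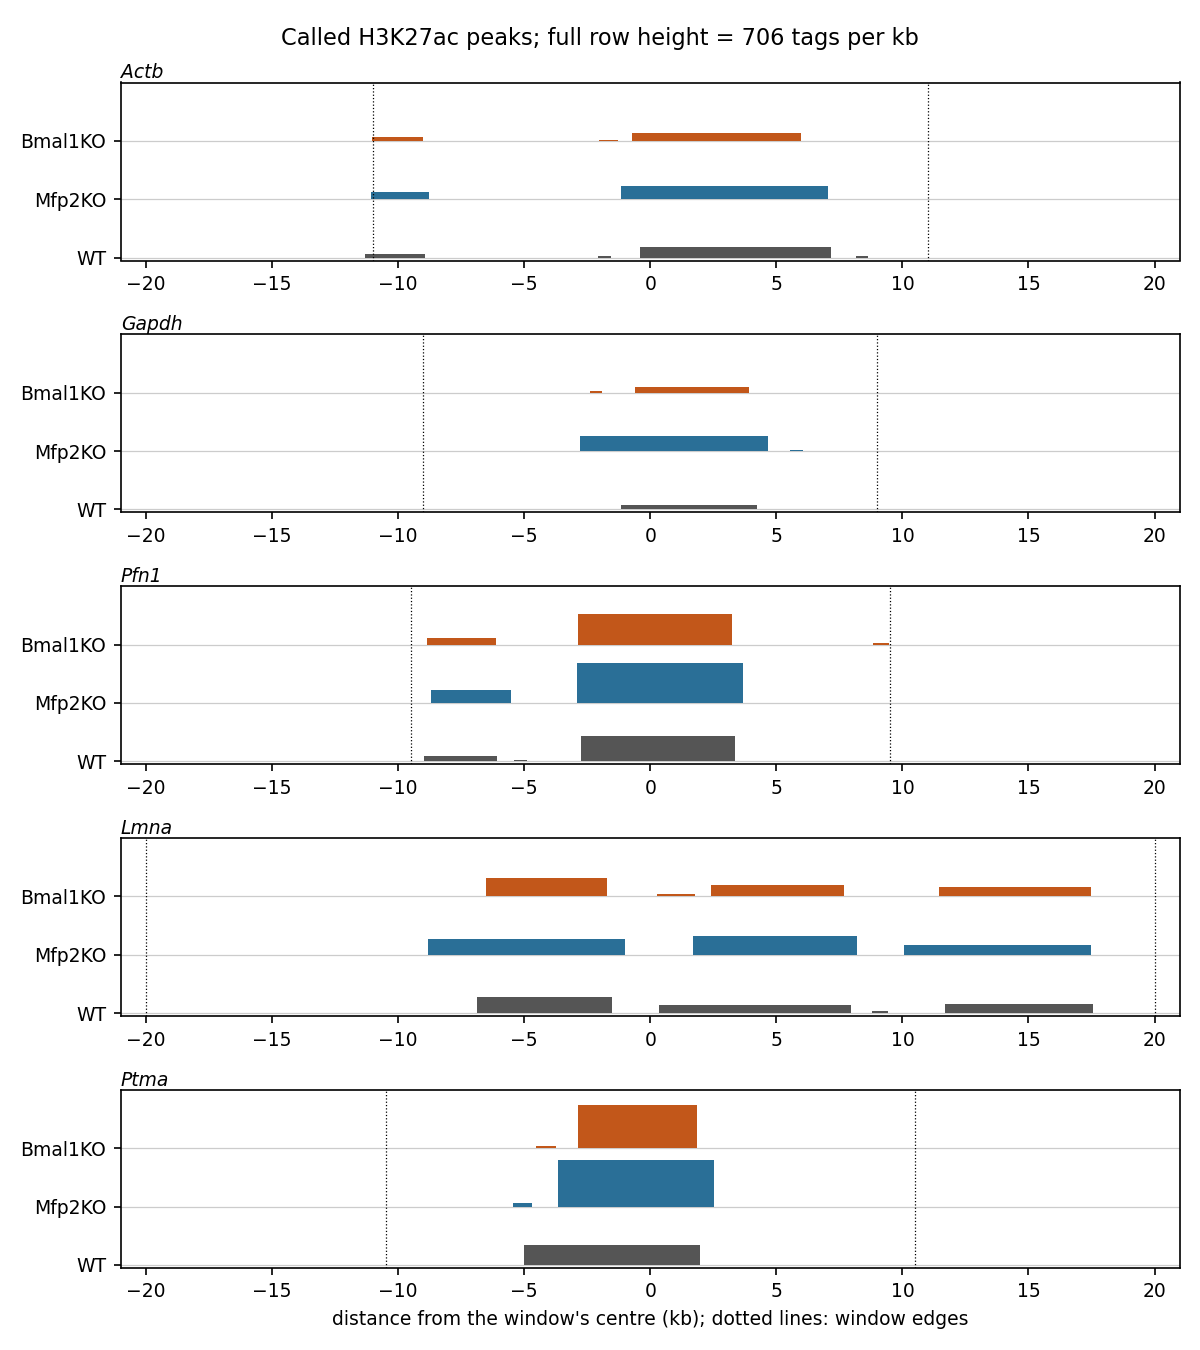
Called H3K27ac peaks in the 5 windows as bars along the distance from the window's centre in kb, with bar height giving tags per kb, in rows for Bmal1KO, Mfp2KO and WT. Ptma and Pfn1 show 1 dense principal peak, Lmna shows 3 regions, and the Gapdh peak is 7444 bp long in Mfp2KO against 5394 bp in WT.

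Counts past 1.5-fold were read against those of all regions. In Mfp2KO 3 of the 5 principal regions (Gapdh, Ptma and Pfn1) were at least 1.5-fold higher than WT, where 45.1% of the 14779 regions and 54.8% of the top 20% were. The top 20% is ranked with the Mfp2KO tags included and holds Gapdh only through them. Nothing particular to the loci is therefore drawn from this count. None of the 5 was 1.5-fold lower in Mfp2KO, where 24.1% of all regions and 2% of the top 20% were. In Bmal1KO none of the 5 was past 1.5-fold in either direction, where 16.6% of all regions were higher and 32.9% lower, and 23.4% and 9.84% in the top 20%. Ptma, at 1.495-fold, was just short of it. With the sums over windows, 4 of 5 loci were past 1.5-fold higher in Mfp2KO, Lmna being the addition. With tags scaled to the tags in peaks in place of all tags, Gapdh in Mfp2KO was still past 1.5-fold, at 3.03-fold, while Ptma came to 1.45-fold, Pfn1 to 1.227-fold, Lmna to 1.07-fold and Actb to 0.955-fold. In Bmal1KO, Ptma came to 1.55-fold on that scale, past the threshold.

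Division by the median region also left fewer of the loci past 1.5-fold in Mfp2KO. Then 2 of the 5 were higher in Mfp2KO, Gapdh at 3.29-fold and Ptma at 1.58-fold, beside 29.8% of all regions and 28.6% of the top 20%. None of the 5 was lower, beside 32.8% of all regions and 9.17% of the top 20%. In Bmal1KO 1 of the 5 was higher, Ptma at 1.71-fold, beside 24.5% of all regions and 34.4% of the top 20%. None was lower there, beside 26.3% and 5.41%. The members' counts of higher loci are thus near the shares of all regions in both knockouts. They count sums over windows, set beside single regions, and nothing particular to the loci is drawn from them. In undivided ratio to WT the principal regions lay between the 36.4th percentile (Actb) and the 83.2nd (Ptma) of all regions in Bmal1KO. In Mfp2KO they lay between the 49.9th (Actb) and the 94.3rd (Gapdh).

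**Figure D3:**
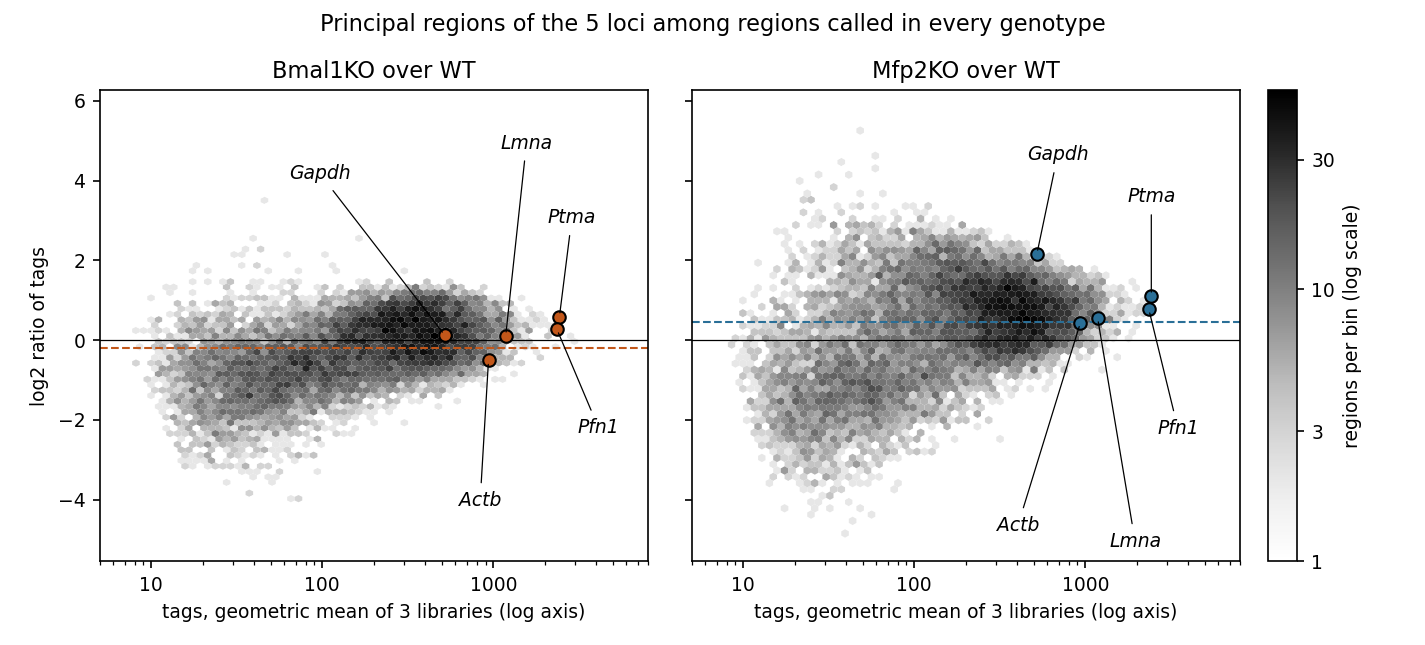
Log2 ratio of tags to WT against the geometric mean of tags in the 3 libraries for 14779 regions called in every genotype (grey, number of regions per bin), with the principal regions of the 5 loci as coloured points, Bmal1KO left and Mfp2KO right. The dashed line is the median region. Gapdh in Mfp2KO lies at a ratio of 4.45, with 838 of all regions at or above it, and its place along the level axis includes its Mfp2KO tags.

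Called length was compared in the same way. In Bmal1KO all 5 principal regions were shorter than in WT, as were 77.8% of all regions, while 21.8% of all regions and 20.7% of the top 20% were longer. In Mfp2KO 4 of the 5, all but Ptma, were longer than in WT, where 21.1% of all regions were longer and 78.7% shorter, and 13.7% of the top 20% were longer. The loci were chosen by their tags in these libraries, and Gapdh is in the top 20% only through its Mfp2KO tags. Nothing particular to the loci is therefore drawn from these counts of length. By sums over windows, the loci had between 78.9% and 99.3% of the WT length in Bmal1KO, and 3 of 5 were longer in Mfp2KO, with Gapdh at 147%, Lmna at 112% and Pfn1 at 103%. Actb and Ptma were at 96.3% and 99.3%. Density was higher than in WT at all 5 loci in Mfp2KO and at 4 in Bmal1KO, with Actb the exception. Beside this, density was higher in 73.6% of all regions and 95.6% of the top 20% in Mfp2KO, and in 54.5% and 72.9% in Bmal1KO. The median density ratio of the 5 loci, 1.76 in Mfp2KO and 1.16 in Bmal1KO, was below that of the top 20%, 1.99 and 1.28, and nothing particular to the loci is drawn from the count.

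Input moved with the ChIP signal at some of the loci. In the top 20% of regions the median input per kb was 8.24 in Bmal1KO, 14.3 in Mfp2KO and 8.16 in WT, so the Mfp2KO input itself held more tags over acetylated regions. Among the 5 loci the Mfp2KO to WT ratio of input per kb was 1.87 at Pfn1 (1.48 to 2.36), 1.82 at Ptma (1.44 to 2.30) and 1.45 at Actb (1.13 to 1.86). It was 1.09 at Lmna (0.932 to 1.27) and 0.847 at Gapdh, whose intervals include 1. As tags over input, the ratio of Mfp2KO to WT was 3.59 at Gapdh, 1.30 at Lmna, 1.19 at Ptma, 1.01 at Actb and 0.943 at Pfn1. The median over the top 20% of regions was 1.14. How far the input enters these ratios was not tested.

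The sequence beside the windows differed between libraries as well. Peaks within 30 kb of the Gapdh window, and not in it, held 885 tags in Bmal1KO, 1728 in Mfp2KO and 667 in WT, or 1.33-fold in Bmal1KO (1.22 to 1.44) and 2.59-fold in Mfp2KO (2.41 to 2.78). One flanking region, from 125107243 to 125110458, was close to Gapdh in ratio, with 147 tags in Bmal1KO, 529 in Mfp2KO and 131 in WT, or 4.04-fold in Mfp2KO (3.46 to 4.72). In the annotation of GRCm38.p6 the protein-coding genes next to Gapdh are Iffo1 and Ncapd2, those next to Actb are Fbxl18 and Fscn1, those next to Lmna are Sema4a and Mex3a, and those next to Ptma are Tex44 and Pde6d. In Mfp2KO the flanks had higher ratios than the windows at Pfn1 (2.22, 2.08 to 2.37) and Lmna (2.33, 2.19 to 2.48). Left of Lmna, one region from 88361317 to 88370773 differed in opposite directions, with 167 tags in Bmal1KO, 1035 in Mfp2KO and 389 in WT, or 0.430-fold (0.367 to 0.505) and 2.66-fold (2.42 to 2.93). At Ptma the flanks had 2.16 (2.02 to 2.31) and at Actb 1.52 (1.40 to 1.65), which overlap the intervals of their windows. In Bmal1KO the Ptma flanks were at 0.988-fold of WT (0.906 to 1.08), beside 1.495-fold in the window, and the Actb flanks were at 0.856-fold (0.777 to 0.944).

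**Figure D4:**
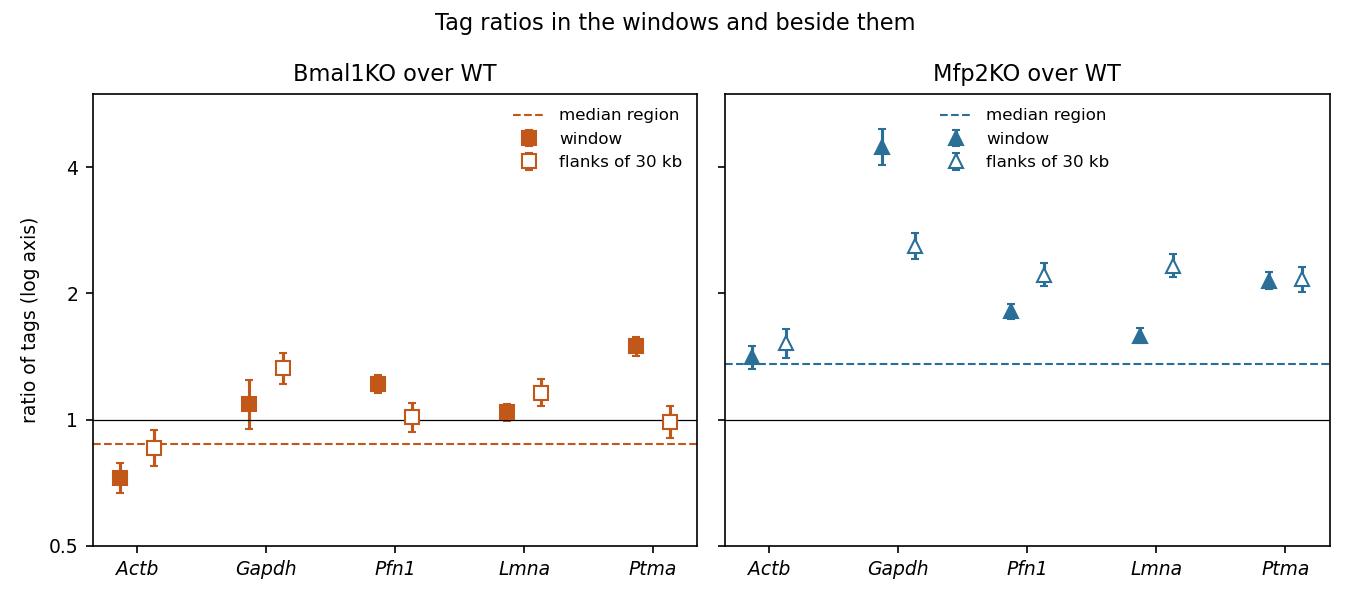
Ratio of tags to WT (log axis) in the windows of the 5 loci (filled) and in the peaks within 30 kb beside them (open), with 95% counting intervals, for Bmal1KO and Mfp2KO, and the median region called in every genotype (dashed). Gapdh in Mfp2KO is at 4.48 in the window and 2.59 beside it, and Actb in Bmal1KO at 0.725 in the window and 0.856 beside it.

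Where the windows end bears on some values. With windows extended by 10 kb, Gapdh in Mfp2KO came to 3.58-fold of WT and Actb in Mfp2KO to 1.11-fold. The Actb value is below both its window (1.41) and the peaks within 30 kb beside it (1.52). The extended edge falls inside a region that begins 9242 bp right of the window, with 691 tags in Mfp2KO and 514 in WT. Peaks there count in full or not at all, so the 1.11 is not read as a level of the locus. Without the extension, only the leftmost Actb peak crossed an edge, and it did so in every list. The nearest peaks left out lay 552 bp to the left of the Ptma window in WT, with 12.0 tags, and 2394 bp to the right of the Pfn1 window in Bmal1KO, with 454 tags. Over all windows, 9 merged regions were called in every genotype. Their tags were higher than in WT in 9 of 9 in Mfp2KO, beside 63.4% of all regions and 86.3% of the top 20%, and in 7 of 9 in Bmal1KO, beside 41.6% and 60.1%. The other 6 were small: 3 were called in WT alone, 1 in Bmal1KO alone, 1 in Mfp2KO alone and 1 in Bmal1KO and WT, each with at most 13.6 tags.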

How the data were processed

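H3K27ac was measured by ChIP-seq in 6 libraries, 1 ChIP and 1 input per genotype, grouped by their titles. Per the submitters' processing notes, the tools included HOMER 5.1, MACS3 3.0.3, Picard 3.4.0, BWA 0.7.19-r1273, fastp 1.0.1 and SAMtools 1.23, and the build was mm39. The notes give them no role. HOMER findPeaks in histone style made the lists, per the file headers: windows of 500 bp were stitched, each ChIP was set against the input of its genotype, and 4-fold enrichment and a p-value of 0.0001 over input were required by the authors. The deposited signal is the tag count per peak scaled to 10 M tags. Input tags are a deposited signal scaled here to 10 M tags. In Bmal1KO the authors had scaled the input to the ChIP depth, so intervals on its input are approximate. The deposited fold over input is a ratio. The deposited findPeaks score was not used for any result, and region length (other) equals end minus start.

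Peaks overlapping a window by at least 1 bp were summed. Peaks of all lists on chromosomes 1 to 19 and X were merged where they overlapped, and tag sums were compared. With 1 library per genotype no test was made. Named were all 5 loci. The members, windows and lists were chosen with earlier results of these data known, as was the level of 1.5-fold. Lists of companion genes and cell type markers were not analysed here, because the gene table given is of GRCm38.p6. Python 3.11.15, numpy 2.4.6, pandas 2.3.3, scipy 1.17.1 and matplotlib 3.10.9 were used. The merging and intervals were run on simulated lists with known ratios. Those lists shared the WT peaks and their lengths, so differences in called extent between lists were not covered.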

Additional observations from a re-analysis of the deposited data

How the results depend on the processing

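The log2 ratios of the 5 loci to WT had a median of 0.12 in Bmal1KO and 0.86 in Mfp2KO. Relative to the median region these became 0.31 and 0.41. In Mfp2KO the median was 0.29 with tags scaled to the tags in peaks, 0.94 with windows extended by 10 kb, and 0.78 with the peak with most tags, with the central 50% of each window, or with the principal region, an alternative added after the data were seen. The median log2 ratio of called length was -0.15 in Bmal1KO, and -0.23 with peaks of at least 6-fold, -0.152 with extended windows and -0.12 with the central 50%. In Mfp2KO it was 0.04, 0.0048 with extended windows and 0.081 with the central 50%. Over all regions called in every genotype the median log2 ratio was -0.19 in Bmal1KO, and -0.14 scaled to tags in peaks, 0.073 per kb, -0.051 with peaks of at least 6-fold and 0.15 in the top 20% of regions, so its sign depends on the measure. In Mfp2KO it was 0.44, and -0.12 scaled to tags in peaks, 0.70 per kb, 0.51 with peaks of at least 6-fold and 0.67 in the top 20% of regions. Of the alternative values of these medians, 20 moved and 16 did not. This count does not grade the size of a change. In Bmal1KO with extended windows, the length median went from -0.149 to -0.152 and counted as moved. The tag median there went from 0.119 to 0.261 and did not count as moved. Of 100 values of single loci, 70 stayed within the counting interval and 30 moved. Actb was the lowest and Ptma the highest locus in Bmal1KO under all 11 settings, the main one included. Gapdh was the highest in Mfp2KO under all 11, at 3.03-fold to 4.96-fold. Actb was the lowest there under 10, and Lmna per kb. Not all settings could change this order. Scaling to the tags in peaks or to the median region multiplies all loci alike. Counting only peaks at least 50% inside the window left the value of every locus as it was. Actb in Mfp2KO came to 0.955-fold of WT with tags scaled to the tags in peaks, below 1. The causes were not tested.

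No paired analysis was possible because each genotype has 1 ChIP library and the labels give no replicate numbers. The intervals cover counting error only, while the called extent of a peak also enters its tags. Gapdh in Mfp2KO was at 4.48-fold of WT by tags (4.06 to 4.95) and at 3.04-fold per kb, which lies outside that interval. How the libraries of 1 genotype would vary is not known here. No position below the authors' thresholds can be read from the lists, so small peaks called in 1 list are not shown to be absent from the others.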

Other observations

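Because such genes are in use as references for scaling, the median region called in every genotype was also expressed relative to each locus. With Bmal1KO and WT scaled to equal tags at a locus, the median region in Bmal1KO was at 1.21-fold of WT by Actb, 0.841 by Lmna, 0.806 by Gapdh, 0.721 by Pfn1 and 0.585 by Ptma. For Mfp2KO it was at 0.965-fold by Actb, 0.859 by Lmna, 0.751 by Pfn1, 0.634 by Ptma and 0.304 by Gapdh. The choice among the 5 thus changes the median region over a 2.06-fold range in Bmal1KO and a 3.18-fold range in Mfp2KO, and in Bmal1KO it changes whether the median region is above or below WT. This is arithmetic on 3 libraries and not a test.

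Regions with a pattern like that of a locus were counted as those within 0.25 log2 units in the plane of both ratios to WT. There were 161 such regions, or 1.09%, for Gapdh, 386 (2.61%) for Actb, 743 (5.03%) for Ptma, 820 (5.55%) for Pfn1 and 825 (5.58%) for Lmna, all by their principal regions. They were not named, because the peaks were not annotated with genes here.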
